A study of Mus musculus with 6 samples.

Results

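The cytokinesis regulators described here are 10 mouse genes, *Ect2*, *Racgap1*, *Prc1*, *Anln*, *Aurkb*, *Cit*, *Cep55*, *Rhoa*, *Rock1* and *Chmp4b*, taken by name from the 53801 genes counted. All 10 were found in the count tables, and all 10 had enough reads to be tested. RNA of MC3T3-E1, a line derived from mouse calvaria and labelled as pre-osteoblast, was sequenced in 3 Control and 3 Hdac4-knockdown libraries. Control cells carried a lentivirus with a scrambled non-silencing RNA, and Hdac4-knockdown cells carried the same kind of lentivirus with a short hairpin RNA against *Hdac4*, a class IIa histone deacetylase gene. Both groups received 5 μg/mL puromycin for 7 days, so each is a selected population, labelled as the same line, and the knockdown rests on a single hairpin. The study names Hdac4-shRNA3 for the sequencing, with the target gcatgaggcacagttgcatga, where the scrambled RNA is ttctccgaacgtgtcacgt. The replicates are called biological, but nothing says that they came from separate infections, so the p-values below measure the spread between these samples.

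Cytokinesis is the step that splits the cell after the chromosomes have separated. Microtubules between the chromosome sets are bundled into a central spindle, which places and activates a RhoA signal at the cell equator. RhoA builds and contracts a ring of actin and myosin, and the thin bridge that remains, the midbody, is cut by ESCRT-III filaments. Several of these genes are known to be transcribed mainly in G2 and mitosis, whereas others also act in the cytoskeleton or in membrane traffic throughout the cell cycle.

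Reads counted on genes numbered 29096544 to 31651826 per library. Values below are CPM, counts scaled to a common library size after TMM normalization, and calls are from edgeR's quasi-likelihood F test with Benjamini-Hochberg adjustment over the 14531 genes tested, at a threshold of 0.05. *Hdac4* was at 40.7, 40.2 and 39.9 CPM in Control libraries and at 30.7, 28.8 and 29.5 CPM in Hdac4-knockdown libraries, 73.6% of the Control level, and 22.4% of its exon bases are shared with *Gm26720*. The groups differed widely, with 91.8% of the variance on the first principal component. The pre-osteoblast label was only partly borne out by its markers. *Alpl* was at 0.105 CPM or less in every library, and *Ibsp* and *Bglap* were at 0.372 CPM or less. *Sp7* was at 0.234 CPM or less in Control libraries and at 2.26 to 3.48 CPM in Hdac4-knockdown libraries (edgeR adjusted p = 4.52e-09). *Runx2* was at 65.3 to 82.9 CPM in the 6 libraries and was called higher in Hdac4-knockdown libraries (edgeR adjusted p = 0.00719), although its groups overlapped. The skeletal muscle markers *Myod1*, *Myog* and *Myh3* summed to 98.3 to 108 CPM in Control libraries and to 15.5 to 16.3 CPM in Hdac4-knockdown libraries. The osteoblast list, mostly *Col1a1*, summed to 392 to 416 CPM and to 10890 to 11470 CPM, respectively. Whether both groups came from the same stock of the line was not tested, nor was the part of these marker differences in the results below.

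Of the 10 cytokinesis regulators, 9 were downregulated in Hdac4-knockdown libraries and 0 upregulated, whereas 37.1% of all tested genes were downregulated and 38.0% upregulated by edgeR (75.1% in either direction). DESeq2 and limma-voom also called 9 lower and 0 higher, where they called 35.7% and 37.2% of all genes lower, and edgeR found 0 higher at an unadjusted p under 0.05. *Cit* did not pass the test. The fall was large for 6 genes, *Aurkb*, *Prc1*, *Anln*, *Ect2*, *Cep55* and *Racgap1*, which were left at 27.8% to 41.8% of their Control level. It was small for *Rock1*, *Rhoa* and *Chmp4b*, which were left at 65.5% to 83.3%. The log2 fold change of Hdac4-knockdown over Control (log2FC) was below -1 for those 6 genes, against 10.6% of all tested genes, and below -0.5 for 7, against 19.8%. The 10 genes together made up 2299 ± 14.5 CPM in Control libraries and 1179 ± 7.34 CPM in Hdac4-knockdown libraries (SD, n = 3). In these bulk samples, fewer cells in G2 and mitosis and less RNA per dividing cell cannot be told apart. For cells with the same hairpin, the study reported more cells in G1 and fewer in S phase by flow cytometry, and fewer EdU-positive cells. Its text gives no value for G2 and mitosis. From this sequencing the study already reported mitotic division, chromosome segregation and cell cycle terms among the downregulated genes. By RT-qPCR it reported less *Pcna*, *Cdk1*, *Ccnb1* and *Ccna2* RNA and more *Cdkn1a* RNA.

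**Figure D1:**
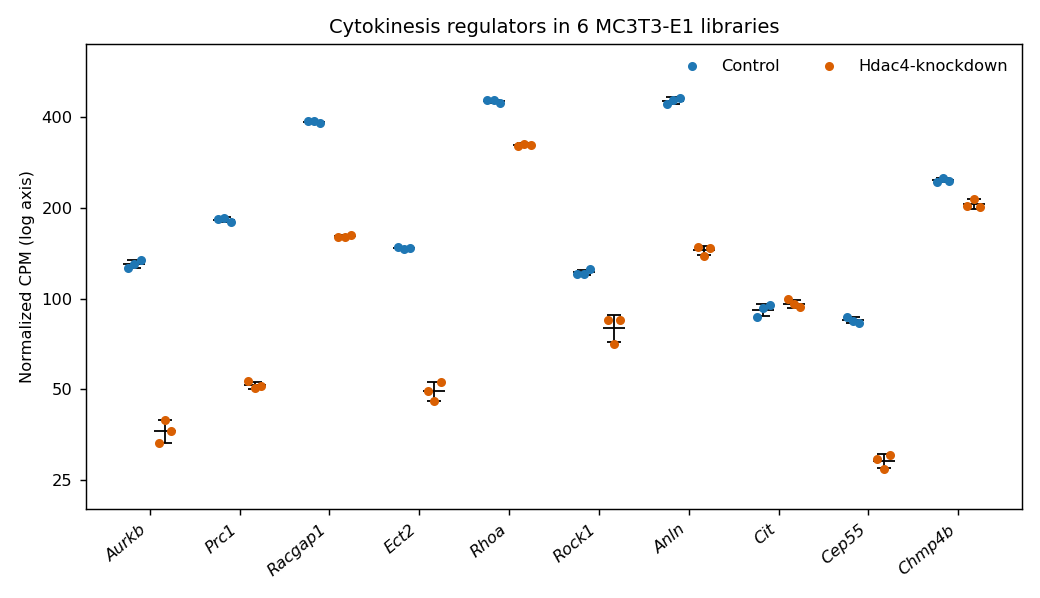
Normalized CPM on a log axis of the 10 cytokinesis regulators in 3 Control (blue) and 3 Hdac4-knockdown (orange) libraries; each point is a library, and black bars give the mean and SD (n = 3). The groups are separate for 9 genes and overlap for *Cit*, and the widest gaps are those of *Aurkb* and *Prc1*.

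The promoters of these genes were read for the letters known as the CHR element, bound by the DREAM and MMB-FOXM1 complexes at G2/M genes, and for the CCAAT box, bound by NF-Y. RefSeq windows (GRCm38.p6) from 250 bases before to 50 after the start were available for 8 of the 10 genes, *Aurkb* and *Rock1* being the others. Searching both strands, TTTGAA was present in 5 of these 8 windows, those of *Ect2*, *Prc1*, *Racgap1*, *Cep55* and *Anln*, and in 17.9% of all 32851 windows. CCAAT was present in 3 of the 8, those of *Ect2*, *Prc1* and *Racgap1*, and in 37.4% of all windows. Neither run was present in the windows of *Cit*, *Rhoa* and *Chmp4b*, nor was the alternative CHR run TTTAAA or an E2F run (TTTGGCGC or TTTCGCGC) in any of the 8. Stretches that hold these matches, except a TTTGAA run of *Ect2* after its start, are shown 5′ to 3′ on the gene's strand, with TTTGAA and CCAAT, or their reverse complements TTCAAA and ATTGG, in capitals.
Prc1, chr7:80294396-80294465, plus strand: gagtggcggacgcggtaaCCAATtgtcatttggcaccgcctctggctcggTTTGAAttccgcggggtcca
Racgap1, chr15:99651637-99651696, minus strand: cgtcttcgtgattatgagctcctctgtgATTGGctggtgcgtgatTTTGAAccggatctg
Ect2, chr3:27153865-27153999, minus strand: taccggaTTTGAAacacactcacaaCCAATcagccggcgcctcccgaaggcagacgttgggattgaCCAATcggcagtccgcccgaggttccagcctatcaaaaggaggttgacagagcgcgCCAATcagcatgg
Cep55, chr19:38054981-38055030, plus strand: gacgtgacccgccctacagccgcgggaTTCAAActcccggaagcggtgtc
Anln, chr9:22389167-22389196, minus strand: gggcgctgaaaTTCAAAtTTTGAAcggccg

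In *Prc1* the TTTGAA run began 30 bases before the start and a CCAAT run 62 bases before it. In *Racgap1* the corresponding runs began 6 bases after and 12 bases before the start. *Ect2* held 3 CCAAT runs and 2 TTTGAA runs, 138 bases before and 16 after the start, and *Cep55* held a reverse-strand TTTGAA run 33 bases before its start. In *Anln* the 2 matches, 1 on each strand, both lay after the start. Over all tested genes with a window, 38.7% of 10372 were downregulated, and 51.1% of the 622 genes with both TTTGAA and CCAAT in a window were. A log2 fold change below -1 was found for 9.52% and 16.4%, respectively. Of the genes with TTTGAA in a window, with or without CCAAT, 43.8% were downregulated and 13.3% were below -1, and of those with CCAAT, with or without TTTGAA, 41.2% and 10.3%. A match describes letters in a window, and binding was not measured.

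Of the central spindle genes and the kinase that controls them, *Aurkb* and *Prc1* had the lowest log2FC of the 10 genes and *Racgap1* fell less. *Aurkb* (ENSMUSG00000020897; chromosome 11, 69045647 to 69051664) encodes Aurora B, the kinase of the chromosomal passenger complex. It was at 127, 130.4 and 135 CPM in the Control libraries and at 33.1, 39.4 and 36.5 CPM in the Hdac4-knockdown libraries. Every Hdac4-knockdown value lay far below every Control value, with a log2FC of -1.84 (SE 0.0571; edgeR adjusted p = 2.22e-16). *Prc1* (ENSMUSG00000038943; chromosome 7, 80294450 to 80316259) encodes the crosslinker of antiparallel microtubules, and its promoter stretch carries both runs shown above. It was at 184, 186 and 179 CPM in Control libraries and at 53.2, 50.5 and 51.3 CPM in Hdac4-knockdown libraries. The groups were separate and the replicates close together, with a log2FC of -1.82 (SE 0.0446; edgeR adjusted p = 5.33e-18). *Prc1* shares 911 of its 8225 exon bases with *Rccd1*, and reads there carry no strand. *Racgap1* (ENSMUSG00000023015; chromosome 15, 99620496 to 99651656) encodes the GTPase activator subunit of centralspindlin, which binds ECT2. It was at 387, 388 and 382 CPM in Control libraries and at 159.8, 161 and 163 CPM in Hdac4-knockdown libraries. This was the smallest fall of the 6, to 41.8% of Control, with a log2FC of -1.26 (SE 0.0382; edgeR adjusted p = 1.57e-16).

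In the RhoA branch, the exchange factor fell much more than the GTPase and its effector kinase. *Ect2* (ENSMUSG00000027699; chromosome 3, 27097222 to 27153878) encodes the exchange factor that loads RhoA with GTP at the equator. It was at 148, 146 and 147 CPM in Control libraries and at 49.4, 45.7 and 52.8 CPM in Hdac4-knockdown libraries. Its level in Hdac4-knockdown libraries was 33.5% of Control, a log2FC of -1.58 (SE 0.0512; edgeR adjusted p = 4.80e-16). *Rhoa* (ENSMUSG00000007815; chromosome 9, 108306129 to 108337934), the GTPase itself, was at 455, 455 and 446 CPM in Control libraries and at 321, 327 and 325 CPM in Hdac4-knockdown libraries. The groups did not overlap, but the log2FC was only -0.48 (SE 0.0367; edgeR adjusted p = 4.15e-10). *Rock1* (ENSMUSG00000024290; chromosome 18, 10064401 to 10182045) encodes a RhoA-activated kinase that raises myosin light chain phosphorylation. It was at 121, 120.3 and 125 CPM in Control libraries and at 85, 70.6 and 84.6 CPM in Hdac4-knockdown libraries. The second Hdac4-knockdown library lay below the other two, and the log2FC was -0.61 (SE 0.0585; edgeR adjusted p = 1.37e-08) with it and -0.52 without it. Transcript GC content was examined only for tested coding genes above a minimum mean expression. In that library the 1866 of these genes with the lowest GC content (33.2% to 44.1%) had a median deviation of -0.08 (log2) from the group mean. *Rock1* and *Ect2* are among them, both at 40.2%, and the *Ect2* log2FC was -1.52 without that library.

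At the ring and the midbody, *Anln* and *Cep55* fell and *Cit* did not. *Anln* (ENSMUSG00000036777; chromosome 9, 22332012 to 22389188) encodes anillin, the scaffold that ties RhoA, actin, myosin and septins together. It was at 443, 457 and 464 CPM in Control libraries and at 148, 139 and 147 CPM in Hdac4-knockdown libraries, a log2FC of -1.65 (SE 0.0415; edgeR adjusted p = 8.51e-18). *Cep55* (ENSMUSG00000024989; chromosome 19, 38055011 to 38074423) encodes the midbody protein that recruits the ESCRT machinery. It was at 86.8, 84.4 and 83 CPM in Control libraries and at 29.5, 27.3 and 30.3 CPM in Hdac4-knockdown libraries, a log2FC of -1.55 (SE 0.0541; edgeR adjusted p = 1.59e-15). Both genes were left at about the share of Control seen for *Ect2*, with 31.8% for *Anln* and 34.2% for *Cep55*. *Cit* (ENSMUSG00000029516; chromosome 5, 115845278 to 116008947) encodes citron kinase, which organizes the midbody. It was at 87, 93 and 95.4 CPM in Control libraries and at 99.5, 95.9 and 93.5 CPM in Hdac4-knockdown libraries. The groups overlapped, and the log2 fold change of 0.07 had a 95% interval from -0.03 to 0.17 (adjusted p = 0.197 by edgeR). Upper quartile normalization gave *Cit* a log2 fold change of 0.16 (adjusted p = 0.00505 by edgeR). The counts sum the kinase form of citron and a shorter form without the kinase domain, which were not told apart here.

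*Chmp4b* (ENSMUSG00000038467; chromosome 2, 154651705 to 154694785) encodes the ESCRT-III subunit that forms the main filament at abscission and that also serves endosomes and membrane repair. It was at 245, 252 and 246 CPM in Control libraries and at 203, 215 and 201 CPM in Hdac4-knockdown libraries. The groups did not overlap, although the fall was the smallest of those called, with a log2FC of -0.26 (SE 0.0408; edgeR adjusted p = 8.93e-06). For each of the 9 downregulated genes the 3 Hdac4-knockdown libraries lay below the 3 Control libraries, as they did for 38.0% of all tested genes, and they lay above for 0 of the 10, against 38.8%. A two-sided exact permutation test gave p = 0.1 for each of them, the smallest p that 3 libraries against 3 allow.

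Ordered by log2 fold change from the lowest, the genes ran *Aurkb*, *Prc1*, *Anln*, *Ect2*, *Cep55*, *Racgap1*, *Rock1*, *Rhoa*, *Chmp4b* and *Cit*. Some neighbours in that order were within error of each other. *Prc1* minus *Aurkb* was 0.02 (95% interval -0.12 to 0.16), *Ect2* minus *Anln* was 0.07 (-0.06 to 0.20), *Cep55* minus *Ect2* was 0.03 (-0.12 to 0.18), and *Rhoa* minus *Rock1* was 0.13 (-0.01 to 0.27). Others were apart beyond error. *Racgap1* lay 0.29 above *Cep55* (0.16 to 0.42), and the widest step was the one from *Racgap1* to *Rock1*, 0.65 (0.51 to 0.79). These intervals treat the errors of the 2 genes as independent. Among all tested genes ranked from the lowest log2 fold change, the 6 strongly lower genes were at percentiles 5.10 to 8.33, *Rock1* at 17.3, *Rhoa* at 21.5, *Chmp4b* at 32.3 and *Cit* at 53.7.

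Levels of different genes were compared per kilobase of merged exon length, and again per kilobase of the longest coding transcript. In Control libraries *Chmp4b* was highest by exon length (122 CPM per kilobase) and *Rhoa* was next (60.3), an order that changed places by transcript length (153 and 206). *Racgap1*, *Anln* and *Aurkb* followed under both lengths. *Rock1* (6.75 by exon length) and *Cit* (5.59) were the lowest under both. In Hdac4-knockdown libraries *Rhoa* and *Chmp4b* still led under both lengths. *Prc1*, at 22.2 CPM per kilobase of exon in Control libraries, was at 6.28 in Hdac4-knockdown libraries, beside *Cit* at 5.87, and by transcript length they were at 17.1 and 10.1.

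The 10 genes lie on 9 chromosomes, with *Anln* and *Rhoa* both on chromosome 9. Counting the 10 nearest tested genes around each, 35 of 100 neighbours were downregulated and 40 upregulated, near the 37.1% and 38.0% of all tested genes. The downregulated neighbours numbered from 1 around *Cep55* to 5 around *Aurkb*, *Rock1* and *Chmp4b*. Around *Cep55* 8 of the 10 were upregulated, with a median log2 fold change of 0.71.

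A list of 47 other cytokinesis genes was taken from the same pathway, and all 47 were tested. Of these, 31 were downregulated, 12 upregulated and 4 not called, where 37.1% of all tested genes were downregulated and 38.0% upregulated. The median log2 fold change of the 47 was -0.26, against 0.01 over all tested genes. Counting changes of more than 0.5 on the log2 scale, 20 were lower and 4 higher, where 19.8% and 24.6% of all tested genes were. All 3 genes of the central spindle fell, *Kif20a* (log2 fold change -1.80), *Kif23* (-1.74) and *Kif4* (-1.42), which encode mitotic kinesins. *Kif20a* shares 1271 of its 4338 exon bases with *Cdc23*. The partners of Aurora B also fell, *Cdca8* (-1.41), *Birc5* (-1.20) and *Incenp* (-0.74), which encode borealin, survivin and the scaffold of the complex.

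**Figure D2:**
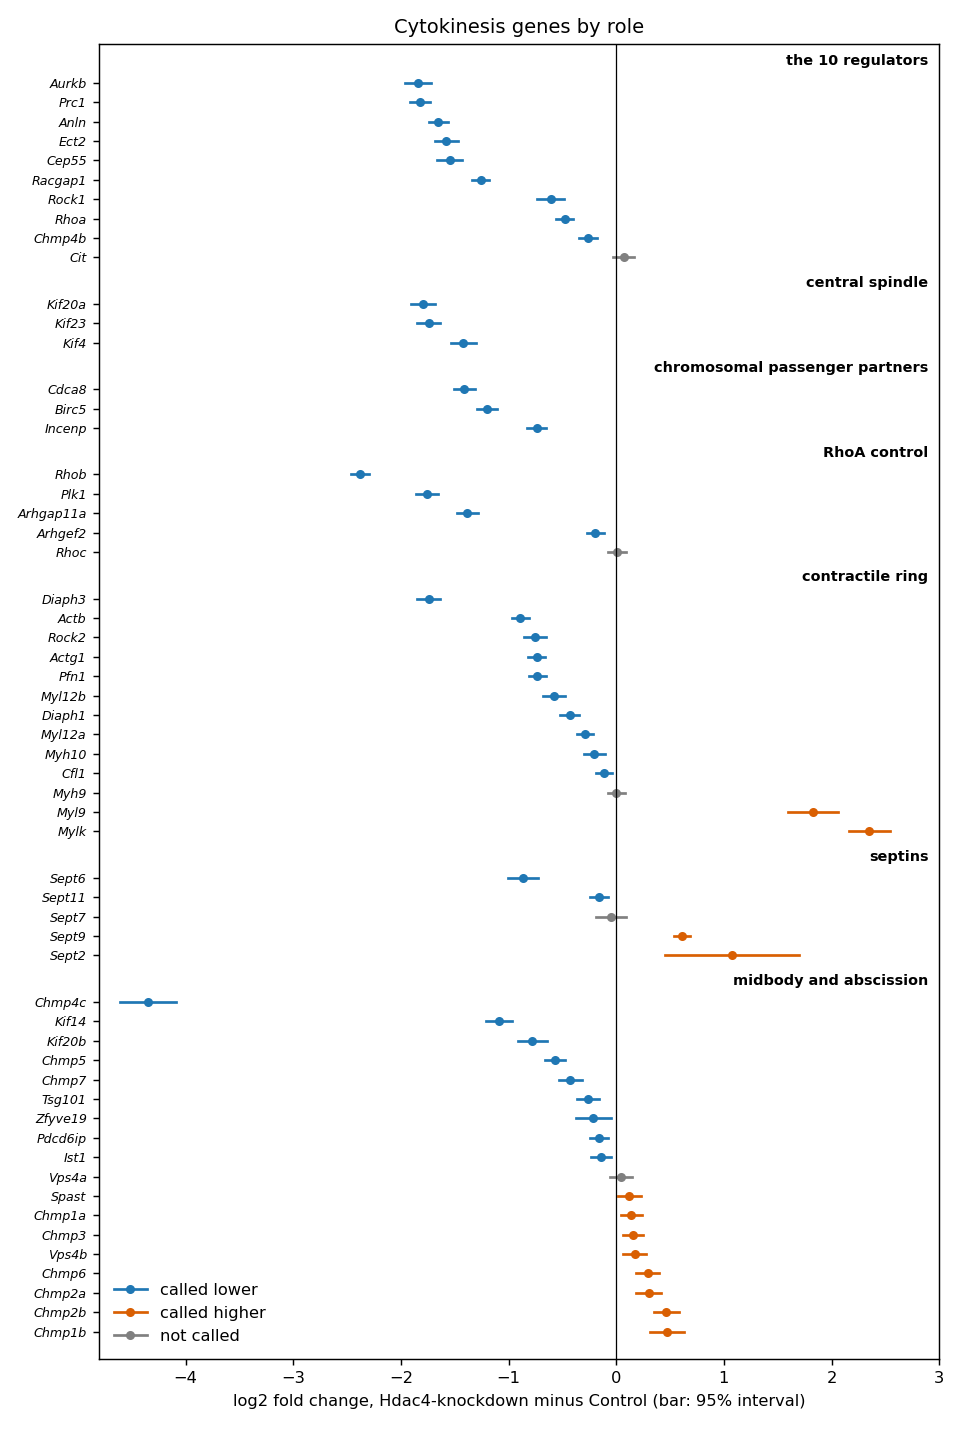
log2 fold change (Hdac4-knockdown minus Control) of the 10 regulators and 47 other cytokinesis genes by role, with 95% intervals from edgeR; blue genes were called lower, orange higher and grey not called. The central spindle and passenger genes all lie left of 0, whereas the abscission genes lie on both sides.

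Among 5 genes of RhoA control and its relatives, 4 fell, where 37.1% of all tested genes did, and *Rhoc* did not pass the test. *Plk1*, the kinase that licenses ECT2 at the central spindle, had a log2 fold change of -1.76, and *Arhgap11a*, a RhoA GTPase activator gene, one of -1.38. *Arhgef2*, which encodes the microtubule-bound exchange factor GEF-H1, fell by only 0.20 on the log2 scale. In the contractile ring, 10 of 13 genes fell, 2 rose and 1 was not called, where 37.1% of all tested genes fell and 38.0% rose. A log2 fold change below -0.5 was found for 6 of the 13, against 19.8% of all tested genes. The formin gene *Diaph3* fell most (-1.74), followed by the beta-actin gene *Actb* (-0.89), from 3213 ± 54.3 to 1735 ± 60.2 CPM (SD, n = 3). *Myh9*, the nonmuscle myosin IIA heavy chain gene, was at 2043 ± 94.9 and 2045 ± 42.4 CPM (SD, n = 3). The 2 genes that rose, *Mylk* (2.35) and *Myl9* (1.83), encode myosin light chain kinase and the smooth muscle regulatory light chain. Both were low, with *Mylk* at 4.39 ± 0.212 and 22.4 ± 0.625 CPM and *Myl9* at 4.28 ± 0.433 and 15.2 ± 1.43 CPM (SD, n = 3).

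Of 5 septin genes, which encode filament proteins bound by anillin, *Sept6* (-0.87) and *Sept11* (-0.16) fell and *Sept9* (0.61) and *Sept2* (1.08) rose. *Sept11* did not pass the test with upper quartile normalization (log2 fold change -0.07, adjusted p = 0.104 by edgeR). The *Sept2* value is uncertain, since 3335 of its 7979 exon bases are shared with another gene annotated as *Sept2* its level was 2.55 CPM or less in every library, and its groups overlapped.

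Of 18 midbody and abscission genes, 9 fell (50%), 8 rose (44.4%) and 1 was not called, where 37.1% of all tested genes fell and 38.0% rose. With upper quartile normalization 6 fell and 9 rose, and the higher call of *Spast*, which encodes a microtubule-severing enzyme, held in 7 of 14 alternatives. The kinesin genes *Kif14* (-1.09), whose product brings citron kinase to the midbody, and *Kif20b* (-0.78) fell. The 10 ESCRT-III genes with the Chmp name, *Chmp4b* included, had 4 downregulated and 6 upregulated, where 37.1% and 38.0% of all tested genes were. Those that fell were *Chmp4c* (-4.35), *Chmp5* (-0.57), *Chmp7* (-0.43) and *Chmp4b* (-0.26). The 6 that rose did so by little, from 0.14 for *Chmp1a* to 0.47 for *Chmp1b* and *Chmp2b*. Their direction was the same under every normalization tried, but the *Chmp1a* call was lost under 2 of 14 alternatives. *Chmp1b* shares 605 of its 2524 exon bases with AC140336.1. *Vps4a*, which encodes an ATPase that disassembles ESCRT-III, was not called (0.04, adjusted p = 0.429 by edgeR).

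The median fall of the cytokinesis regulators was of the size seen for earlier steps of mitosis. Over all tested genes, 37.1% were downregulated. Of 11 mitotic entry genes, among them *Ccnb1* and *Cdk1*, 10 were downregulated, with a median log2 fold change of -1.36. Of 15 kinetochore and spindle checkpoint genes 15 were downregulated, with a median of -1.42, and 14 were with library size alone, with the upper quartile method or without the third Hdac4-knockdown library. The median of the 10 cytokinesis regulators was -1.40, but these genes were split. A log2 fold change below -1 was found for 6 of the 10. It was found for 9 of the 11 mitotic entry genes and 12 of the 15 kinetochore and spindle checkpoint genes, against 10.6% of all tested genes. The mitotic entry gene that was not called was *Pkmyt1*, which encodes an inhibitory kinase of CDK1 (0.02). The proliferation markers *Top2a*, *Mki67* and *Pcna* had log2 fold changes of -1.55, -1.14 and -0.61. These lists were compared by their counts and medians, and the difference between lists was not tested.

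**Figure D3:**
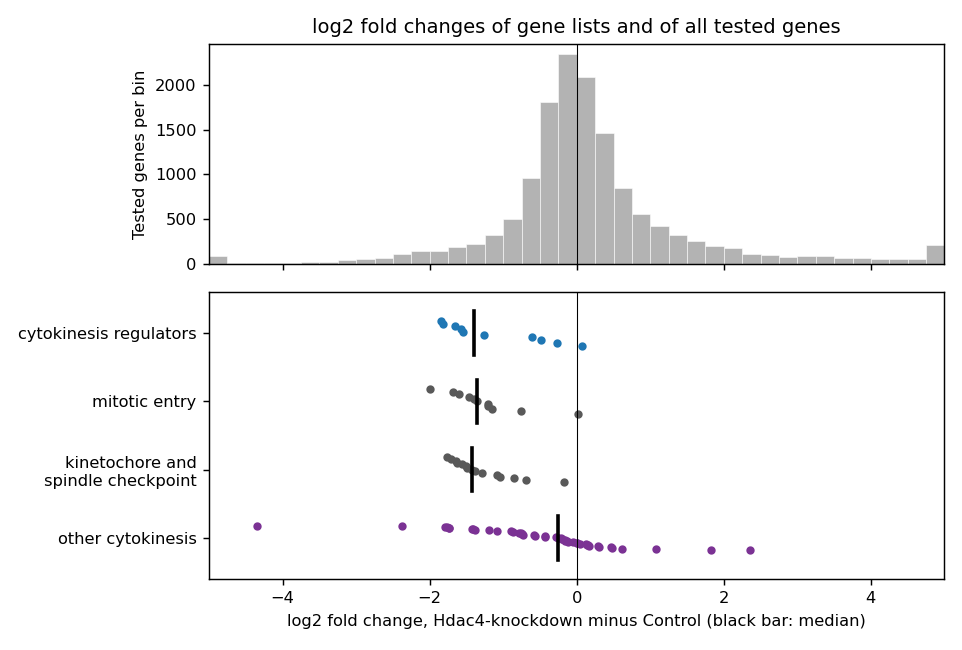
Top, number of tested genes in each bin of log2 fold change (Hdac4-knockdown minus Control; the end bins also hold the genes beyond them). Bottom, each gene of 4 lists as a point, with a black bar at the median, which is -1.40 for the cytokinesis regulators, -1.36 for mitotic entry, -1.42 for kinetochore and spindle checkpoint and -0.26 for the other cytokinesis genes.

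Genes whose products work as partners, or that are paralogs, were compared as ratios within each library. Of 10 ratios, 9 were separate between the groups, each with a two-sided exact permutation p of 0.1, the smallest possible with 3 libraries against 3, and 0.111 after adjustment over the 10. How often ratios of other gene pairs separate the groups was not computed. Of single tested genes, 38.0% were wholly lower and 38.8% wholly higher in Hdac4-knockdown libraries, so separation alone does not mark these pairs out. *Racgap1* and *Kif23* encode the subunits of centralspindlin. Per kilobase of exon, *Racgap1* was 3.68, 3.71 and 3.73 times *Kif23* in Control libraries and 4.94, 5.53 and 5.09 times in Hdac4-knockdown libraries. The ratio was thus higher in each Hdac4-knockdown library than in any Control library, with a log2 difference of 0.48. The log2 difference of the ratio of *Ect2* to *Racgap1* was -0.32. For *Aurkb* over its passenger partners it was -1.11 against *Incenp*, -0.65 against *Birc5* and -0.44 against *Cdca8*. Against *Aurka*, which encodes the Aurora kinase of the spindle poles, *Aurkb* did not separate the groups, with a log2 change of the ratio of -0.04 (two-sided exact permutation test, p = 0.8). *Aurkc* had 3 counts or fewer in every library.

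*Rhoa* and its relatives diverged. *Rhob* was at 602, 626 and 615 CPM in Control libraries and at 119, 119.8 and 115 CPM in Hdac4-knockdown libraries, whereas *Rhoc* was at 336, 339 and 329 CPM and at 325, 349.8 and 333 CPM. *Rhob*, an endosomal and stress-responsive relative, thus had a log2FC of -2.38 (SE 0.0401; edgeR adjusted p = 1.57e-20), and the *Rhoc* groups overlapped (0.01, 95% interval -0.08 to 0.09). *Rhoc* ranged from -0.02 to 0.10 over the alternatives, below 0 only with no filter beyond 1 count or when a library was left out. The ratio of *Rhoa* to *Rhob* per kilobase of exon was 0.231 ± 0.00524 in Control libraries and 0.860 ± 0.0198 in Hdac4-knockdown libraries (SD, n = 3). By the length of the longest coding transcript the same ratio was 0.787 and 2.94, so that which of the pair is more abundant in Hdac4-knockdown libraries depends on the length used. *Rock2* fell with *Rock1*, to 59.2% of Control, and the ratio of *Rock1* to *Rock2* changed by 0.14 on the log2 scale.

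*Chmp4c*, the relative of *Chmp4b* known for the abscission checkpoint that Aurora B controls, was nearly lost. It was counted 621, 623 and 627 times in Control libraries and 30, 31 and 35 times in Hdac4-knockdown libraries, or 21 ± 0.861 and 1.03 ± 0.114 CPM (SD, n = 3). Its log2FC of -4.35 (SE 0.124; edgeR adjusted p = 5.86e-17) was at percentile 0.778 of all tested genes. Per kilobase of exon, *Chmp4b* exceeded *Chmp4c* 58.6-fold in Control libraries and 989-fold in Hdac4-knockdown libraries.

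**Figure D4:**
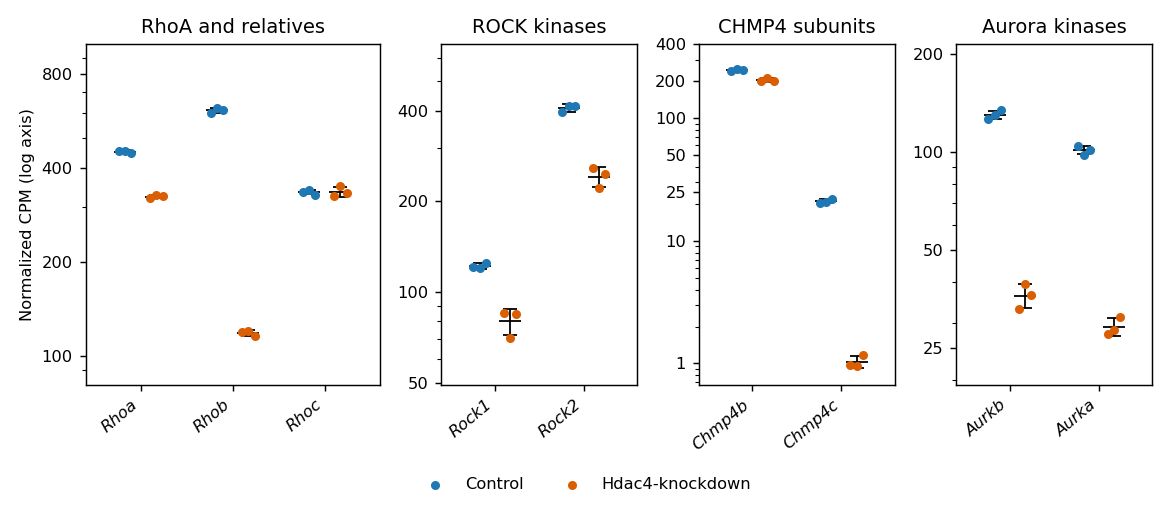
Normalized CPM on log axes of *Rhoa*, *Rock1*, *Chmp4b* and *Aurkb* beside their paralogs in 3 Control (blue) and 3 Hdac4-knockdown (orange) libraries, with mean and SD (n = 3). *Rhob* and *Chmp4c* drop far more than *Rhoa* and *Chmp4b*, *Rhoc* overlaps between groups, and the Aurora kinase genes drop alike; heights of different genes are not corrected for length.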

How the data were processed

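The authors deposited raw counts of reads per Ensembl gene for each library, without normalization. The submitters' processing notes name FastQC, STAR 2.7.3a, HTSeq 0.12.4 and the build mm10, and the annotation release is not given in the sources used here. The library kit carries no strand as the labels describe it. Summary lines for reads outside genes (3.17% to 5.07%), shared between genes (5.84% to 6.51%) or aligned to several places (3.88% to 4.77%) were left out. Each of these shares was separate between the groups. Reads outside genes were 3.17% to 3.41% in Control and 4.64% to 5.07% in Hdac4-knockdown libraries. Shared reads were 6.4% to 6.5% and 5.8% to 5.9%, and reads aligned to several places were 4.61% to 4.77% and 3.88% to 4.15%, respectively. Symbols, positions and exon lengths came from GENCODE M21 (GRCm38), in which 53706 of 53801 identifiers were found.

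Groups were tested against each other in R 4.3.3 with edgeR 4.0.16 (glmQLFit and glmQLFTest), after TMM and the default filterByExpr, with no covariates. Replicates of a group differed by more than sampling noise (chi-square per degree of freedom 3.23 to 8.36). Intervals are at 95%. Gene ratios used counts plus 0.5. DESeq2 1.42.0, limma 3.58.1 (voom), other normalizations and filters, a replicate block and leaving out each library were alternatives. The edgeR step was also run on simulated data with 200 planted changes. It recovered 88.4% of the 2-fold and 79.8% of the 1.5-fold changes tested, with 8 false calls among 13433 genes. Far fewer genes were changed there than the 75.1% called here, so that run does not check the calls made here. Where RefSeq lists several starts for a gene, the window whose first bases occur in most GENCODE transcripts was used.

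The member genes and all lists were chosen with earlier results of these data known. Genes named are the members, *Hdac4*, their partners and paralogs, proliferation and cell type markers, and, for each role among the other cytokinesis genes, up to 2 called genes at either end of the log2 fold change. *Kif20b*, *Spast*, *Chmp1a*, *Chmp5*, *Chmp7*, *Myh9*, *Vps4a*, *Pkmyt1*, *Ccnb1*, *Cdk1*, *Mad1l1* and *Bub1* were named after their values were seen. So were *Cfl1*, *Pdcd6ip*, *Ist1* and *Zfyve19*, whose calls were lost with upper quartile normalization. Figures were drawn with matplotlib 3.10.9.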

Additional observations from a re-analysis of the deposited data

How the results depend on the processing

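The count of 9 downregulated cytokinesis regulators was the same under every normalization, filter, test and omission of a library that was tried, and 7 and 6 of them were beyond a log2 fold change of 0.5 and 1. *Cit* was called upregulated, which made 1 upregulated regulator instead of 0, with library size alone (log2 fold change 0.13, adjusted p = 0.0216 by edgeR), with the upper quartile method (0.16, adjusted p = 0.00505 by edgeR) and when every library had to hold 10 counts or more (0.11, adjusted p = 0.0474 by edgeR). Under the same settings, in that order, the log2 fold change of *Rhoa* went from -0.48 to -0.42, -0.39 and -0.44. That of *Ect2* went from -1.58 to -1.52, -1.49 and -1.54. The cause of the *Cit* calls was not tested. Of 140 combinations of a member and an alternative, the other 137 kept their direction and their side of the threshold. Upper quartile normalization shifted the median log2 fold change by 0.089, and with it *Rhoc*, *Myh9* and *Vps4a* were called higher (0.10, 0.09 and 0.13) and *Cfl1*, *Sept11*, *Pdcd6ip*, *Ist1* and *Zfyve19* were no longer called. Beyond a log2 fold change of 0.5, 20 of the other cytokinesis genes were downregulated and 4 upregulated, and beyond 1 these numbers were 11 and 3, since a higher threshold admits fewer genes. Over all genes, 2879 were downregulated and 3579 upregulated beyond 0.5, and 1543 and 2397 beyond 1.

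The replicate numbers were not taken to pair the libraries, because deviations of same-numbered libraries from their group means were correlated by -0.0111 to 0.027 across genes. With the replicate block, 9 regulators, 31 of the other cytokinesis genes and 5441 of all genes were downregulated, against 9, 31 and 5393 without it. At 29096544 to 31651826 counts per library, genes such as *Aurkc* and *Alpl* had few or no counts and were not tested between the groups.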

Other observations

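The number of genes with any count was 19373 to 19797 in Control libraries and 22148 to 22640 in Hdac4-knockdown libraries, at similar totals. Among markers of other cell types, the chondrocyte gene *Col2a1* was at 0.827 ± 0.179 and 51.1 ± 2.4 CPM (SD, n = 3) and the adipocyte regulator gene *Pparg* at 28.4 ± 1.21 and 3.4 ± 0.715 CPM (SD, n = 3). *Acan* and *Adgre1* were at 0 in every library, *Sox9* was at 126 ± 1.66 and 127 ± 10.2 CPM (SD, n = 3), and the epithelial markers *Epcam*, *Krt8* and *Cdh1* summed to 0.936 CPM or less in every library. The blood markers *Ptprc*, *Cd68* and *Adgre1* summed to 2.49 CPM or less, and the endothelial markers *Pecam1*, *Cdh5* and *Kdr* to 0.334 CPM or less in Control libraries and 2.82 CPM or less in Hdac4-knockdown libraries.

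Among kinetochore and spindle checkpoint genes, *Mad1l1* had the smallest fall, with a log2 fold change of -0.17 (adjusted p = 0.0059 by edgeR; called in 11 of 14 alternatives, with 0.173 by the upper quartile method), and *Bub1*, at -1.77, had the largest. The second Hdac4-knockdown library was the lowest of its group for 20 of the 24 cytokinesis, mitotic entry and kinetochore genes with a transcript GC content of 44.1% or less. The shift was not particular to these genes, since the 1866 low-GC genes described above had a median deviation of -0.08 (log2) in that library. The share of those 1866 genes for which that library was the lowest was not computed.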
